A study of Mus musculus with 16 samples.

Results

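A set of 10 genes that answer to oxidative and metal stress was described across 4 mononuclear phagocyte populations of the mouse: the NRF2 targets Nqo1, Gclc, Gclm, Txnrd1, Srxn1, Slc7a11, Prdx1 and Gsr, and the metallothioneins Mt1 and Mt2. They were found by symbol in the deposited table of counts, 10 of 45664 gene entries, and all 10 were among the 15754 entries that passed the filter on low counts. Bulk RNA had been sequenced from cornea macrophages (sorted as CD45+CD11b+CD64+F4/80+), retinal microglia (CD45+CD11b+), brain microglia (CD45+CD11b+) and bone marrow monocytes (CD45+CD11b+CD115+Ly6C+), with 4 libraries per population. All mice were C57BL/6, aged 8 to 10 weeks, and carried no stated treatment. Each cornea and each retinal library pooled 10 mice, while the pool size of the brain and marrow libraries is uncertain, because their sample descriptions name retinal microglia against their own titles and sources. Corneae were digested in collagenase D at 37 °C in steps of 1.5 h, whereas retinae were dispersed by pipetting in cold buffer.

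NRF2, encoded by Nfe2l2, is a transcription factor that KEAP1 and the CUL3 ubiquitin ligase normally mark for degradation. Electrophiles and oxidants modify KEAP1, NRF2 accumulates, pairs with a small MAF protein and binds antioxidant response elements in genes for glutathione synthesis, the thioredoxin system and quinone reduction. Metallothioneins are small cysteine-rich proteins that bind zinc and copper; their genes are switched on by the zinc-sensing factor MTF1 through metal response elements, and also by glucocorticoids and oxidants.

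Libraries held 8677418 to 21756558 counts. Levels are given as CPM, the share of a library's counts after scaling by TMM, a normalisation that sets most genes level between libraries, as mean ± SD over 4 libraries; levels of different genes are set side by side only per kilobase of gene length. Lane 2 of the sequencer held 4 retinal, 3 cornea and 1 marrow library, and lane 3 held 4 brain, 1 cornea and 3 marrow libraries, so that no lane held both retinal and brain libraries, and the fits with lane as a term estimate lane through the cornea and marrow libraries. Summed tissue macrophage markers were highest in cornea libraries, microglial markers in both microglial populations and classical monocyte markers in marrow libraries. Mrc1 averaged 1553 ± 101 CPM in cornea macrophages and at most 21.3 CPM elsewhere. P2ry12 averaged 7527 ± 1012 CPM in retinal microglia against 13785 ± 519 CPM in brain microglia, and at most 70.2 CPM elsewhere. Ly6c2 averaged 2464 ± 141 CPM in bone marrow monocytes and at most 0.285 CPM elsewhere. Fcrls, a microglial marker, averaged more in cornea macrophages, at 1070 CPM, than in retinal microglia, at 591 CPM. F13a1, a monocyte marker, averaged 6386 CPM in monocytes and 771 CPM in cornea macrophages. Titles of cornea libraries 1 and 2, retinal libraries 1 and 2 and retinal libraries 3 and 4 share a number, so these may not be separate samples, and p-values measure the spread between libraries.

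Cornea macrophages held far more RNA of these genes than the other populations. All 10 genes were higher in cornea macrophages than in retinal microglia (adjusted p under 0.05 in edgeR's quasi-likelihood test), where 30.9% of all tested genes were higher, 35.1% lower and 66.0% either. All 10 were also higher than in brain microglia, where 33.8% of tested genes were higher, 33.1% lower and 66.8% either. Against bone marrow monocytes 9 were higher and 1, Gsr, was lower, where 32.2% of tested genes were higher, 31.1% lower and 63.3% either. The median log2 fold change of the 10 genes was 6.89 against retinal microglia, 6.75 against brain microglia and 6.53 against monocytes, while the medians over all tested genes were -0.12, -0.001 and 0. At least 8-fold higher and called were 10, 9 and 9 of the 10 genes, against 9.24%, 11.9% and 12.9% of all tested genes. The 10 genes together took 1.32 ± 0.0832% of all counts in cornea macrophages, 0.0400 ± 0.00369% in retinal microglia, 0.0394 ± 0.00301% in brain microglia and 0.139 ± 0.00972% in monocytes (SD, n = 4 each). In 9 of the 10 genes the lowest cornea library stood above all 12 other libraries, and Gsr was the exception; 18.1% of all tested genes showed this. In bulk RNA, fewer cells of a type and less RNA per cell cannot be told apart.

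**Figure D1:**
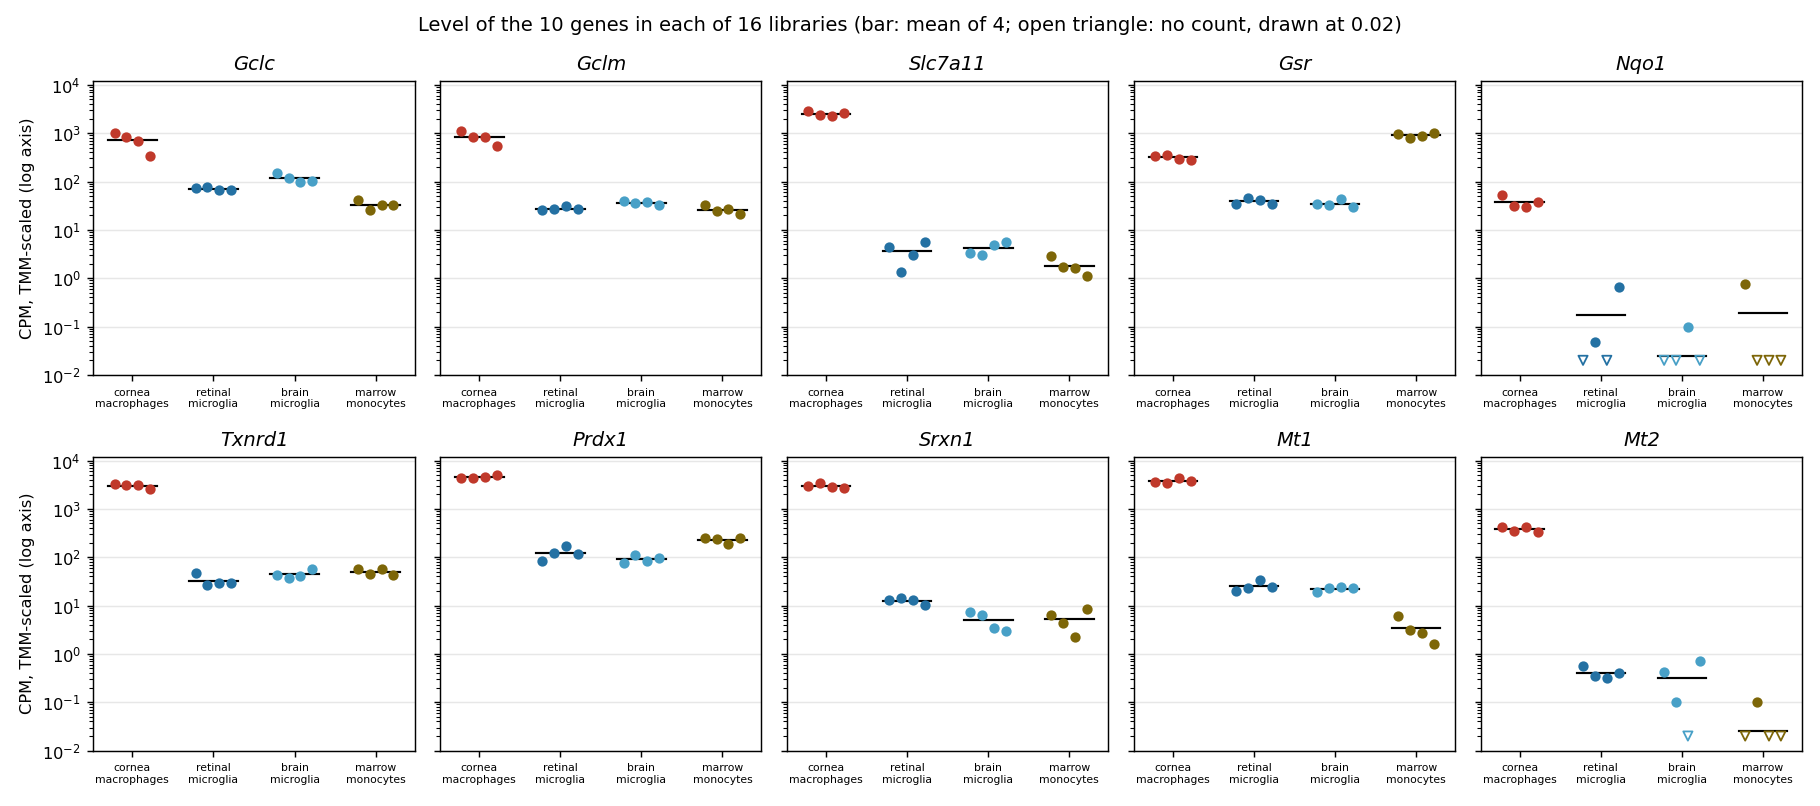
Level of each gene (CPM, log axis) in the 4 libraries of cornea macrophages, retinal microglia, brain microglia and bone marrow monocytes; points are libraries, bars are means of 4, and open triangles are libraries with no count, drawn at 0.02. The cornea points stand above all others in 9 genes, and for Gsr the monocyte points, 783 to 1020 CPM, stand above the cornea points.

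Glutathione synthesis starts with cystine, which xCT, the transporter encoded by Slc7a11 (GRCm38 chromosome 3, 49892526 to 50443614, minus strand), brings into the cell. Slc7a11 stood at 2837, 2374, 2271 and 2662 CPM in the 4 cornea libraries. It stood at 4.50, 1.32, 3.07 and 5.64 CPM in retinal microglia, at 3.34, 3.05, 4.86 and 5.59 CPM in brain microglia and at 2.85, 1.69, 1.64 and 1.14 CPM in monocytes. Every cornea library was above every other library, the lowest 403 times above the highest of the other 12. The log2 fold change was 9.45 ± 0.41 (SE) against retinal microglia, 9.22 ± 0.41 against brain microglia and 10.37 ± 0.43 against monocytes, with edgeR adjusted p of 3.8e-12, 4.11e-12 and 2.56e-12. Tuba1b, a tubulin gene, matches a Slc7a11 transcript at 92.5% of bases over 585 bases, and how far reads were split between them was not tested. Tuba1b averaged 216 ± 38.5 CPM in cornea macrophages, 188 ± 31.0 CPM in retinal microglia, 187 ± 36.6 CPM in brain microglia and 250 ± 28.3 CPM in monocytes. The gene for its partner chain, Slc3a2, averaged 1664 ± 143 CPM in cornea macrophages, 274 ± 21.5 CPM in retinal microglia, 373 ± 57.0 CPM in brain microglia and 34.3 ± 3.04 CPM in monocytes.

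Gclc (chromosome 9, 77754535 to 77794485, plus strand) and Gclm (chromosome 3, 122245557 to 122270732, plus strand) encode the catalytic and the modifier subunit of glutamate-cysteine ligase, the rate-limiting enzyme of glutathione synthesis. Gclc stood at 987, 824, 695 and 345 CPM in cornea macrophages, at 72.7, 77.9, 68.0 and 67.0 CPM in retinal microglia, at 153, 118, 98.2 and 101 CPM in brain microglia and at 41.3, 25.8, 33.2 and 33.3 CPM in monocytes. The fourth cornea library, the single one of lane 3, was the lowest of its group, and even it was 2.25 times the highest library of the other populations. Gclm stood at 1111, 817, 839 and 547 CPM in cornea macrophages, at 26.1, 26.6, 31.0 and 26.6 CPM in retinal microglia, at 38.8, 35.8, 37.6 and 33.0 CPM in brain microglia and at 32.2, 24.1, 26.7 and 21.7 CPM in monocytes. The cornea libraries did not overlap with any other, and the fourth was again the lowest; it held the lowest cornea value of 6 of the 10 genes. For Gclc the log2 fold change of cornea macrophages was 3.32 ± 0.26 against retinal microglia, 2.60 ± 0.25 against brain microglia and 4.41 ± 0.28 against monocytes. For Gclm it was 4.91 ± 0.20, 4.51 ± 0.20 and 4.98 ± 0.20 in the same comparisons. Per kilobase, Gclc was 1.54 ± 0.290 times Gclm in cornea macrophages, 4.79 ± 0.593 times in retinal microglia, 5.94 ± 1.03 times in brain microglia and 2.36 ± 0.354 times in monocytes. The ratio in the cornea libraries, at most 1.85, lay below that in every other library, whose lowest was 1.97 in a monocyte library. An antisense gene, Gm17494, overlaps exons of Gclm. It had 708 counts over all libraries, where Gclm had 43824. No source used here gives the strand setting of the counting.

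Gsr (chromosome 8, 33652523 to 33698163, plus strand) encodes glutathione reductase, which regenerates reduced glutathione with NADPH, and had an order of its own. It stood at 337, 349, 289 and 285 CPM in cornea macrophages and at 34.9, 46.1, 41.8 and 34.1 CPM in retinal microglia. It stood at 33.7, 32.1, 43.4 and 30.1 CPM in brain microglia and at 969, 783, 896 and 1020 CPM in monocytes. The monocyte libraries were the highest and the microglial libraries of both tissues overlapped. The log2 fold change of cornea macrophages was 3.01 ± 0.15 against retinal and 3.18 ± 0.15 against brain microglia, and -1.54 ± 0.14 against monocytes (edgeR adjusted p = 5.86e-08). Retinal microglia were lower than monocytes by a log2 fold change of -4.55 ± 0.16 and brain microglia by -4.72 ± 0.16. Markers of granulocytes and their progenitors summed to 3017, 1395, 620 and 674 CPM in monocyte libraries 1 to 4, and were at most 13.7 CPM in the other populations; in that list of 7 genes Ltf, Elane, Prtn3, Mpo and Ctsg had no count in at least 1 other population. Gsr was lowest in the second of these libraries and highest in the fourth, and a part of such cells in the Gsr level was not tested.

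Txnrd1 (chromosome 10, 82833951 to 82897712, plus strand) encodes cytosolic thioredoxin reductase, the NADPH-dependent enzyme that keeps thioredoxin reduced. It stood at 3247, 3169, 3180 and 2525 CPM in cornea macrophages and at 46.7, 26.2, 29.4 and 28.7 CPM in retinal microglia. It stood at 42.8, 36.9, 40.9 and 56.9 CPM in brain microglia and at 56.2, 44.9, 56.7 and 42.7 CPM in monocytes. The cornea libraries stood apart from all others, and the other 3 populations overlapped. Cornea macrophages had a log2 fold change of 6.54 ± 0.23 against retinal microglia, 6.09 ± 0.22 against brain microglia and 5.92 ± 0.22 against monocytes. Set against Gsr, the other NADPH-dependent reductase of the group, Txnrd1 was 7.77 ± 0.775 times as high per kilobase in cornea macrophages, 0.696 ± 0.271 times in retinal microglia, 1.06 ± 0.329 times in brain microglia and 0.0444 ± 0.00745 times in monocytes.

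Prdx1 (chromosome 4, 116685544 to 116700822, plus strand) encodes a peroxiredoxin that reduces hydrogen peroxide with electrons from thioredoxin. Its level was 4437, 4337, 4647 and 4928 CPM in cornea macrophages, 85.4, 123, 167 and 114 CPM in retinal microglia, 75.3, 113, 84.1 and 98.5 CPM in brain microglia and 254, 240, 186 and 246 CPM in monocytes. Cornea and monocyte libraries each stood above both microglial populations, which overlapped. The log2 fold change of cornea macrophages was 5.23 ± 0.21 against retinal microglia, 5.63 ± 0.21 against brain microglia and 4.31 ± 0.20 against monocytes. The Prdx1 level is uncertain in size, since 3 processed pseudogenes (Gm15974, Gm21399 and Gm7204) match it at 90.9% to 98.3% of bases over 538 to 597 bases, and together took 0.945 to 1.195 times the Prdx1 count in each library. With their counts added, an alternative chosen after seeing the data, Prdx1 averaged 9233 ± 488 CPM in cornea macrophages, 243 ± 68.4 CPM in retinal microglia, 186 ± 31.1 CPM in brain microglia and 479 ± 55.4 CPM in monocytes.

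Srxn1 (chromosome 2, 152105516 to 152111376, plus strand) encodes sulfiredoxin, which repairs peroxiredoxins whose active cysteine has been over-oxidised. Its level was 2999, 3386, 2866 and 2657 CPM in cornea macrophages, 13.3, 14.5, 12.8 and 10.2 CPM in retinal microglia, 7.29, 6.51, 3.37 and 2.97 CPM in brain microglia and 6.42, 4.29, 2.28 and 8.45 CPM in monocytes. The lowest cornea library was 184 times the highest of the other libraries, and the retinal libraries stood above those of brain and marrow. Cornea macrophages had a log2 fold change of 7.87 ± 0.37 against retinal microglia, 9.21 ± 0.39 against brain microglia and 9.09 ± 0.39 against monocytes.

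The 250 bases before the RefSeq start of Srxn1 and Prdx1 are shown because both hold the core of an antioxidant response element, the class of site that NRF2 binds, overlapping the motif of AP-1, the factor made of FOS and JUN proteins. Both windows are from RefSeq on GRCm38.p6, plus strand, Srxn1 at chr2:152105274-152105523 and Prdx1 at chr4:116685349-116685598. Capitals mark the match to the antioxidant response element; in Prdx1 it reads TGACTCAGC on the opposite strand.
Srxn1: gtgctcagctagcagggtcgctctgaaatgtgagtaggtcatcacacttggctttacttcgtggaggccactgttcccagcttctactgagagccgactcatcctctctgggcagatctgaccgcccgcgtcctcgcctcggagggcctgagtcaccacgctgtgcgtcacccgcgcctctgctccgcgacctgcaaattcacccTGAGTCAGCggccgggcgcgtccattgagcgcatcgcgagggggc
Prdx1: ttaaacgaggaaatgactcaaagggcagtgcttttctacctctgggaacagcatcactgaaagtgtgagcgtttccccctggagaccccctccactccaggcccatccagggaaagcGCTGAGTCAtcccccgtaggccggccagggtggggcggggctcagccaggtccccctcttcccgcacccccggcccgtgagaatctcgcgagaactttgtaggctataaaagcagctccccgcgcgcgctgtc
The letters searched were TGACNNNGC or TGAGTCAGC on both strands, the second form added after these promoters had been seen, and 10.5% of 32851 RefSeq promoter windows of the same length hold at least 1 match. Of the 8 genes with a window in the table (Gclc and Gsr had none), 5 held a match. They were Srxn1, Prdx1, Gclm (TGACGGTGC), Mt2 (TGACTCAGC) and Txnrd1 at the second of its 3 starts (TGACAAAGC). Srxn1 matched only through TGAGTCAGC, the form added after the promoters had been seen, so its match was fixed by that choice. The 10.5% is a share of windows, and these 8 genes had 10 windows, 3 of them for Txnrd1. Nqo1, Slc7a11 and Mt1 held none in these 250 bases. The AP-1 letters TGACTCA or TGAGTCA, which 4.46% of windows hold, matched in Srxn1, Prdx1 and Mt2.

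**Figure D2:**
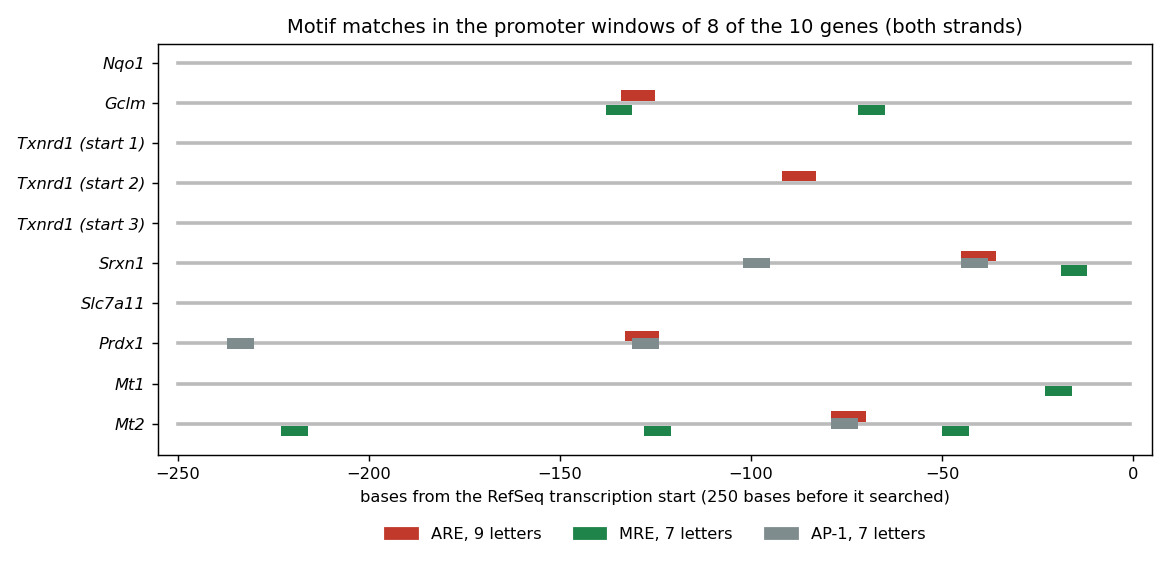
Matches to the antioxidant response element (ARE, red), the metal response element (MRE, green) and the AP-1 motif (grey) in the 250 bases before each RefSeq start, by distance from the start in bases; each line is 1 window, with 3 starts for Txnrd1. Matches to the ARE lie in 5 of the 8 genes, that of Srxn1 only in the form added after the promoters had been seen. Mt2 holds 3 matches to the MRE.

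Nqo1 (chromosome 8, 107388225 to 107403206, minus strand) encodes a quinone reductase and is a common reporter of NRF2 activity. It stood at 52.2, 30.6, 29.7 and 37.5 CPM in cornea macrophages. In retinal microglia 2 libraries had no count and the others 0.0488 and 0.644 CPM; in brain microglia 1 library had 0.0992 CPM and the others no count; in monocytes the first library had 0.768 CPM and the others no count. The 8 libraries without a count could each hold up to 0.162 to 0.305 CPM at a limit of 3 counts. Nqo1 was thus near the floor of detection outside the cornea, with 17 counts over all retinal libraries, 1 over all brain libraries and 17 over all marrow libraries, against 1770 over the cornea libraries. The log2 fold change was 7.45 ± 0.92 against retinal microglia and 7.14 ± 0.91 against monocytes (edgeR adjusted p = 1.86e-06 and 2.98e-06). Against the single brain count, the ratio of pooled CPM was 1652, with a 95% interval of 296 to 65288 that covers counting error only.

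Mt1 (chromosome 8, 94179082 to 94180327, plus strand) and Mt2 (chromosome 8, 94172664 to 94173568, plus strand) are the broadly expressed metallothionein genes and lie 5513 bases apart. Mt1 stood at 3664, 3440, 4418 and 3717 CPM in cornea macrophages, at 20.1, 22.6, 33.2 and 24.6 CPM in retinal microglia, at 19.3, 23.5, 24.3 and 23.1 CPM in brain microglia and at 6.01, 3.09, 2.74 and 1.63 CPM in monocytes. Cornea libraries were highest, the microglia of both tissues overlapped, and monocyte libraries were below all others. The log2 fold change of cornea macrophages was 7.24 ± 0.31 against retinal microglia, 7.40 ± 0.31 against brain microglia and 10.09 ± 0.35 against monocytes.

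Mt2 followed the same order at a lower level. It stood at 419, 353, 418 and 328 CPM in cornea macrophages and at 0.552, 0.342, 0.323 and 0.403 CPM in retinal microglia. In brain microglia it stood at 0.429, 0.102, 0 and 0.725 CPM, and in monocytes at 0.0997 CPM in the second library, with no count in the others. The cornea libraries lay at least 452 times above any other library. The log2 fold change was 9.88 ± 0.36 against retinal microglia and 10.06 ± 0.38 against brain microglia. Against the single monocyte count the ratio of pooled CPM was 21425 (95% counting interval 3845 to 846280). Per kilobase, Mt1 was 10.4 ± 1.14 times Mt2 in cornea macrophages and 68.6 ± 28.2 times in retinal microglia, where Mt2 rests on 30 counts in all. The other metallothioneins were hardly seen: Mt3 averaged at most 0.259 CPM in any population and Mt4 had no count in any library. An antisense gene, Gm45774, overlaps exons of Mt2 and has no entry in the deposited counts, and the strand setting is not given.

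The windows before the RefSeq starts of Mt1 and Mt2 are shown for their metal response elements, the sites that MTF1 binds. Both are from RefSeq on GRCm38.p6, plus strand, Mt1 at chr8:94178839-94179088 and Mt2 at chr8:94172368-94172617, and capitals mark the letters TGCACNC or TGCGCNC on either strand.
Mt1: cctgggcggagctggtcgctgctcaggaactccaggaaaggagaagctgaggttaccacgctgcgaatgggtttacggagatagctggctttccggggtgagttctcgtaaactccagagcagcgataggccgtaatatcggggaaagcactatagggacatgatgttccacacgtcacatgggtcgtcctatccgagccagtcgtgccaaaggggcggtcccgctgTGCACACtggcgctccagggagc
Mt2: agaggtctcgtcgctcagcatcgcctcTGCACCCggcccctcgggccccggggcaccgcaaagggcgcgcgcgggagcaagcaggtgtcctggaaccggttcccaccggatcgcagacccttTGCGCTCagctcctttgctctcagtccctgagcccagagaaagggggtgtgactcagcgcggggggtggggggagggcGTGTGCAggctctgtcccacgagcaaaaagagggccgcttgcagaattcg
Within these 250 bases Mt1 held 1 match and Mt2 held 3, where 21.4% of all windows hold at least 1 and 1.26% at least 3. Bases after the RefSeq start were not searched, so the counts do not compare the whole promoters of Mt1 and Mt2. Gclm held 2 matches and Srxn1 held 1.

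Between retinal and brain microglia the 10 genes differed little, and 1 of 10 was called, where 10.5% of all tested genes differed, 6.95% higher and 3.6% lower in retinal microglia. The libraries did not overlap in 3 of the 10 (Srxn1 higher, Gclc and Gclm lower), as in 18.1% of all tested genes. Srxn1, which averaged 12.7 ± 1.79 CPM in retinal microglia and 5.04 ± 2.18 CPM in brain microglia, had a log2 fold change of 1.34 ± 0.31 (edgeR adjusted p = 0.00954). With sequencing lane as a term, the log2 fold change of Srxn1 was 1.08 with an adjusted p of 0.239, and without the 3 libraries whose titles lack the letter b it was 1.29 with an adjusted p of 0.0596. Gclc averaged 71.4 ± 4.98 CPM in retinal microglia and 118 ± 25.4 CPM in brain microglia, a difference short of the threshold (log2 fold change -0.72 ± 0.24, edgeR adjusted p = 0.069). It passed under DESeq2 with an adjusted p of 0.0236, with lane as a term (0.00503), in a fit of these populations alone (0.0138) and without cornea library 4 (0.00853). Gclm had a log2 fold change of -0.39 ± 0.18 and passed the test with lane as a term, with an adjusted p of 0.0119. Txnrd1, at -0.44 ± 0.18, passed without retinal library 1, with a log2 fold change of -0.66 and an adjusted p of 0.0171, and without the 3 libraries lacking the letter b, with an adjusted p of 0.0396. Nqo1, Slc7a11, Prdx1, Gsr, Mt1 and Mt2 did not pass the test in the reported fit, with edgeR adjusted p of 0.171 to 0.894. The 6 rod photoreceptor markers summed to 3159, 1974, 732 and 6475 CPM in retinal libraries 1 to 4 and to 0.198 to 0.435 CPM in brain microglia, where Gnat1, Pdc, Prph2 and Rbp3 had no count. The 4 neuron markers summed to 81.3, 44.9, 21.4 and 137 CPM in retinal libraries 1 to 4 and to 0.712 to 2.54 CPM in brain microglia. Retinal library 4, with the highest sums of both, was also the highest of its group in Nqo1 and Slc7a11 and the lowest in Gclc, Srxn1 and Gsr. The part of photoreceptors and neurons in the retinal levels was not tested.

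Set against bone marrow monocytes, retinal microglia were higher in 5 and lower in 3 of the 10 genes, where 32.2% of tested genes were higher, 27.1% lower and 59.3% either. Brain microglia were higher in 5 and lower in 2, where 28.5% of tested genes were higher, 27.4% lower and 56% either. The metallothionein Mt1 was higher in both, with log2 fold changes of 2.85 ± 0.27 in retinal and 2.69 ± 0.28 in brain microglia. Mt2 was called higher in both on very few counts, 30 in retinal and 16 in brain microglia against 1 in monocytes. Its pooled ratio was 22.4 (95% counting interval 3.73 to 914) in retinal and 20.2 (3.13 to 846) in brain microglia, and in brain microglia the call was lost under limma-voom, with an adjusted p of 0.053. Gclc was higher in both, by 1.09 ± 0.25 in retinal and 1.81 ± 0.25 in brain microglia; in the retinal comparison it was lost with lane as a term, where the log2 fold change was 0.46 with an adjusted p of 0.152.

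The remaining genes called against monocytes, apart from Gsr, were Prdx1, Srxn1, Txnrd1, Slc7a11 and Gclm. Prdx1 was lower in both microglial populations, with log2 fold changes of -0.92 ± 0.18 in retinal and -1.32 ± 0.18 in brain microglia. Markers of red cell precursors summed to 372 to 2487 CPM in the monocyte libraries, 0 to 0.966 CPM in retinal microglia and 0.407 to 47.7 CPM in brain microglia, and their part in the Prdx1 level was not tested. Srxn1 was higher in retinal microglia by 1.21 ± 0.30, and Txnrd1 was lower there by a log2 fold change of -0.62 ± 0.18, a call lost within lane 2 with an adjusted p of 0.0667. Slc7a11 was higher in retinal microglia by 0.93 ± 0.36 (edgeR adjusted p = 0.0358). This call was lost without retinal library 1 or 4 or marrow library 2, 3 or 4, with adjusted p of 0.0757 to 0.178. It was also lost with lane as a term (0.153), under limma-voom (0.195) and in the pairwise fit (0.0926). Without the 3 libraries lacking the letter b its adjusted p was 0.106. Within lane 2, which held 1 marrow library, the log2 fold change was 0.37. Slc7a11 was higher in brain microglia by 1.15 ± 0.37, a call lost under limma-voom and without brain library 4, with adjusted p of 0.0724 and 0.0557. Gclm was higher in brain microglia by 0.47 ± 0.18 (edgeR adjusted p = 0.032), a call lost without brain library 1, 2 or 3 or marrow library 2, 3 or 4, with adjusted p of 0.055 to 0.102, and under limma-voom (0.155). Comparisons that share a population share its libraries.

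**Figure D3:**
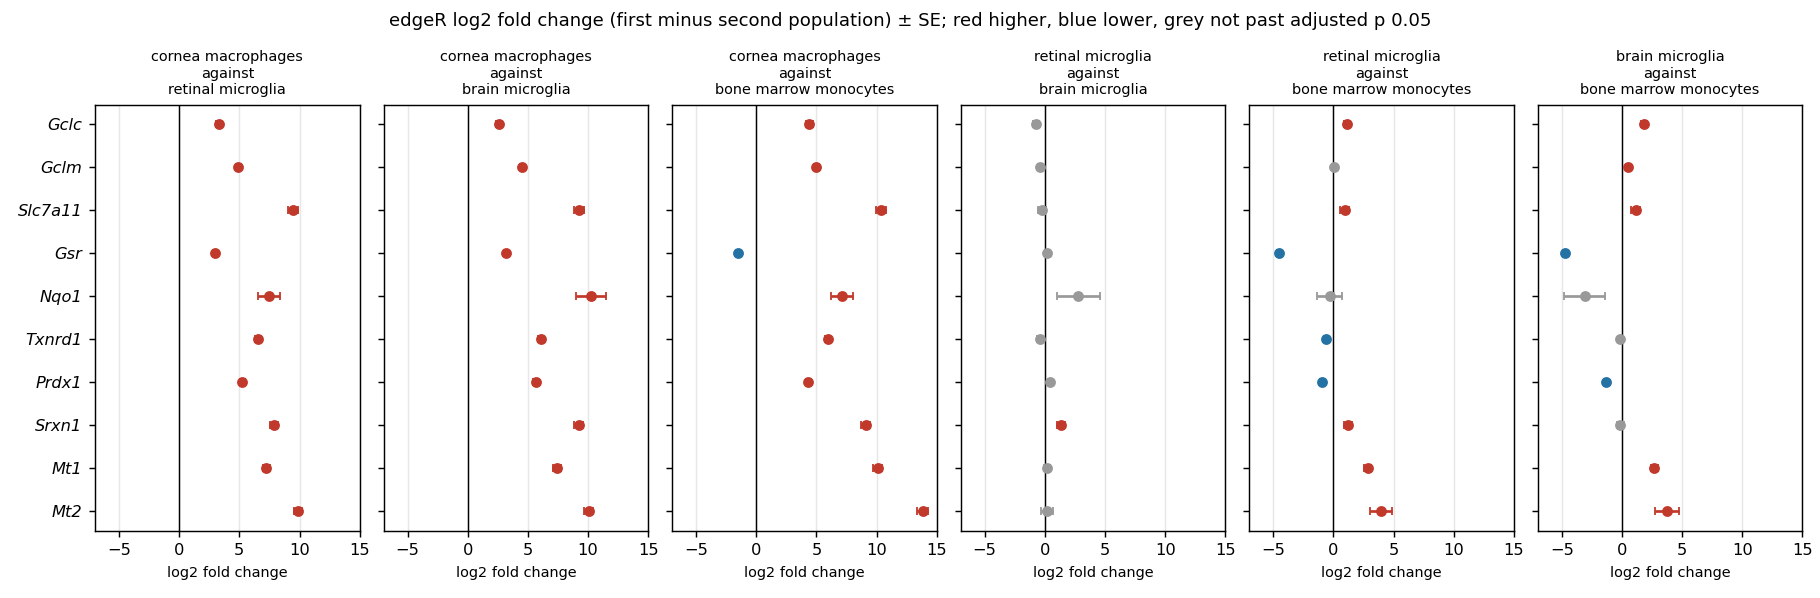
The edgeR log2 fold change ± SE of each gene in the 6 comparisons, first-named population minus the second, with red for higher, blue for lower and grey for genes that did not pass adjusted p 0.05. The cornea comparisons lie between 2.60 and 13.81 apart from Gsr against monocytes at -1.54, and in the comparison of retinal with brain microglia only Srxn1 is red.

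Per kilobase the genes ranged widely within one population. In cornea macrophages Mt1 was the highest of the 10 at 7055 ± 783 CPM per kilobase, followed by Prdx1 at 1507 ± 85.9, Srxn1 at 1056 ± 109, Txnrd1 at 887 ± 99.1 and Mt2 at 682 ± 82.8, while Nqo1 was lowest at 24.1 ± 6.69. In retinal microglia Mt1 at 46.6 and Prdx1 at 40.2 CPM per kilobase were the highest, and in brain microglia Mt1 at 41.8 and Gclc at 34.3. In monocytes Gsr at 333 CPM per kilobase was the highest, followed by Prdx1 at 76.1. With the counts of its 3 pseudogenes added, Prdx1 stood at 79.7 ± 22.5 CPM per kilobase of its own length in retinal microglia and at 61.2 ± 10.2 in brain microglia, which puts it first in both, above Mt1. It then stood at 3034 in cornea macrophages and at 158 in monocytes, second in each as before. The order of populations by mean level had cornea macrophages at the top, a step that passed the test, in the 9 genes other than Gsr. Below it, monocytes, retinal microglia and brain microglia did not differ past the test at any neighbouring step for Nqo1, and the same held for brain microglia, retinal microglia and monocytes in Gclm and for monocytes, brain microglia and retinal microglia in Txnrd1.

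Genes that regulate NRF2 were also higher in cornea macrophages: 8 of 9 against retinal microglia, 8 of 9 against brain microglia and 7 of 9 against monocytes, with median log2 fold changes of 2.15, 1.90 and 2.67. These are 88.9%, 88.9% and 77.8% of the list, where 30.9%, 33.8% and 32.2% of all tested genes were higher. Nfe2l2 itself averaged 1257 ± 175 CPM in cornea macrophages, 283 ± 20.2 CPM in retinal microglia, 336 ± 23.2 CPM in brain microglia and 198 ± 26.2 CPM in monocytes. Maff, a small MAF partner, averaged 366 ± 83.3 CPM in cornea macrophages against 0.912, 0.571 and 0.255 CPM in retinal microglia, brain microglia and monocytes. Sqstm1, whose protein p62 sequesters KEAP1 and whose gene is itself an NRF2 target, averaged 7524 ± 1180 CPM in cornea macrophages, 149 ± 40.9 CPM in retinal microglia, 140 ± 20.4 CPM in brain microglia and 95.5 ± 8.56 CPM in monocytes. Keap1, the NRF2 inhibitor, did not pass the test against either microglial population, at 39.1 ± 10.9 CPM in cornea macrophages, 41.1 ± 3.33 CPM in retinal microglia and 43.3 ± 4.50 CPM in brain microglia. It was lower in cornea macrophages than in monocytes, which had 66.9 ± 9.69 CPM (log2 fold change -0.78). Scaled by total counts, Keap1 was called lower in cornea macrophages in all 3 comparisons, with log2 fold changes of -0.87, -0.82 and -1.45. Of the 9 regulators, edgeR, DESeq2 and limma-voom called 0 between retinal and brain microglia, and 1 had an unadjusted p under 0.05.

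Further NRF2 targets did not all go the same way. Of 19, cornea macrophages were higher in 14 and lower in 3 against retinal microglia, higher in 15 and lower in 2 against brain microglia, and higher in 9 and lower in 8 against monocytes. The shares higher were 73.7%, 78.9% and 47.4%, where 30.9%, 33.8% and 32.2% of all tested genes were higher, and the share lower against monocytes was 42.1%, where 31.1% of all tested genes were lower. Hmox1, which encodes the heme-degrading heme oxygenase 1, averaged 20200 ± 7636 CPM in cornea macrophages, 39.9 ± 16.9 CPM in retinal microglia, 35.1 ± 5.70 CPM in brain microglia and 131 ± 16.7 CPM in monocytes. Osgin1, an oxidative stress-induced gene, averaged 198 ± 49.9 CPM in cornea macrophages and 6.67 ± 2.34 CPM in retinal microglia. Gsta4, a glutathione transferase gene, stood at 193, 30.4, 48.8 and 21.4 CPM in the 4 cornea libraries and averaged 1.11 ± 0.759 CPM in retinal microglia. Its highest level was in cornea library 1, which also held the most corneal epithelial transcripts (1365 CPM over 6 markers). Gsta4 averaged 73.4 ± 80.4 CPM with that library and 33.6 ± 13.99 CPM (n = 3) without it, and the log2 fold change against retinal microglia was 6.09 with it and 4.93 without it (edgeR adjusted p = 4.88e-06 and 3.09e-05). Mgst1, a microsomal glutathione transferase gene, was lower in cornea macrophages, at 14.9 ± 6.08 CPM, than in monocytes, at 509 ± 46.2 CPM. Both microglial populations were lower than monocytes in 12 of the 19 targets (63.2%) and higher in 3, where 27.1% of all tested genes were lower in retinal and 27.4% in brain microglia.

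Of 17 tested genes for glutathione use and thiol redox, cornea macrophages were higher in 7 and lower in 5 against each microglial population, and higher in 5 and lower in 10 against monocytes. The 41.2% higher and 29.4% lower against each microglial population lay near the shares of all tested genes (30.9% and 35.1% for retinal, 33.8% and 33.1% for brain microglia), as did the 29.4% higher against monocytes (32.2%), while 58.8% were lower there, where 31.1% of all tested genes were lower. Sod2, the mitochondrial superoxide dismutase gene, averaged 902 ± 79 CPM in cornea macrophages, 27.4 ± 4.20 CPM in retinal microglia and 25.2 ± 1.97 CPM in brain microglia. Txnip, whose product binds and inhibits thioredoxin, was lower in cornea macrophages at 44.5 ± 13.4 CPM, against 450 ± 56.8 CPM in retinal microglia, 545 ± 41.8 CPM in brain microglia and 627 ± 68.5 CPM in monocytes. Of 13 tested genes for zinc handling, cornea macrophages were higher in 5 and lower in 1 against retinal microglia, 4 and 3 against brain microglia and 8 and 2 against monocytes. The shares higher were 38.5%, 30.8% and 61.5%, where 30.9%, 33.8% and 32.2% of all tested genes were higher, so that against both microglial populations they lay near the share of all genes. Slc30a1, the MTF1 target that exports zinc, averaged 203 ± 27.0 CPM in cornea macrophages, 8.68 ± 0.731 CPM in retinal microglia, 14.5 ± 2.23 CPM in brain microglia and 18.2 ± 1.02 CPM in monocytes. Slc39a14, a zinc importer gene, averaged 426 ± 65.4 CPM in cornea macrophages and 36.2 ± 11.0 CPM in retinal microglia. Mtf1 passed the test in no comparison under TMM, and under total counts was lower in cornea macrophages than in brain microglia (log2 fold change -0.65, adjusted p = 0.0213). It averaged 30.2 ± 6.58 CPM in cornea macrophages, 21.5 ± 6.24 CPM in retinal microglia, 29.6 ± 3.86 CPM in brain microglia and 23.2 ± 4.31 CPM in monocytes. Of 13 genes of the ATF4 programme, which also drives Slc7a11, cornea macrophages were higher in 9 (69.2%) and lower in 1 against retinal microglia. Against brain microglia 8 were higher (61.5%) and 2 lower, and against monocytes 9 (69.2%) and 2. Of all tested genes, 30.9%, 33.8% and 32.2% were higher in these comparisons. Among the ATF4 genes higher than in retinal microglia was Atf3, at 2427 ± 670 CPM against 50.3 ± 13.7 CPM.

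TMM and total-count scaling set the zero of these comparisons differently, since TMM factors were 0.661 to 0.705 in cornea libraries and 1.07 to 1.25 in the others. Scaled by total counts alone, the median log2 fold change of all genes moved by -0.79 against retinal microglia, -0.67 against brain microglia and -0.67 against monocytes. The share of called genes that were higher in cornea macrophages was then 25.6%, 31.9% and 31.7%, compared with 46.8%, 50.5% and 50.9% under TMM. The 10 genes kept all calls, with medians of 6.10, 6.08 and 5.88. Of the 15754 tested genes, 2922 were then higher and 8489 lower in cornea macrophages than in retinal microglia. Against brain microglia 3566 were higher and 7609 lower, and against monocytes 3503 and 7532. Lower calls thus outnumbered higher ones over all genes. The related lists that follow held 9, 19, 17, 13 and 13 tested genes. Against retinal microglia the counts higher and lower under total counts were 7 and 1 for NRF2 regulators, 11 and 5 for further NRF2 targets, 5 and 10 for glutathione and thiol genes, 2 and 7 for zinc handling and 8 and 3 for the ATF4 programme. Against brain microglia they were 6 and 1, 12 and 5, 5 and 9, 2 and 7, and 8 and 5 in the same order of lists. Against monocytes they were 7 and 2, 8 and 9, 4 and 12, 6 and 3, and 8 and 2.

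**Figure D4:**
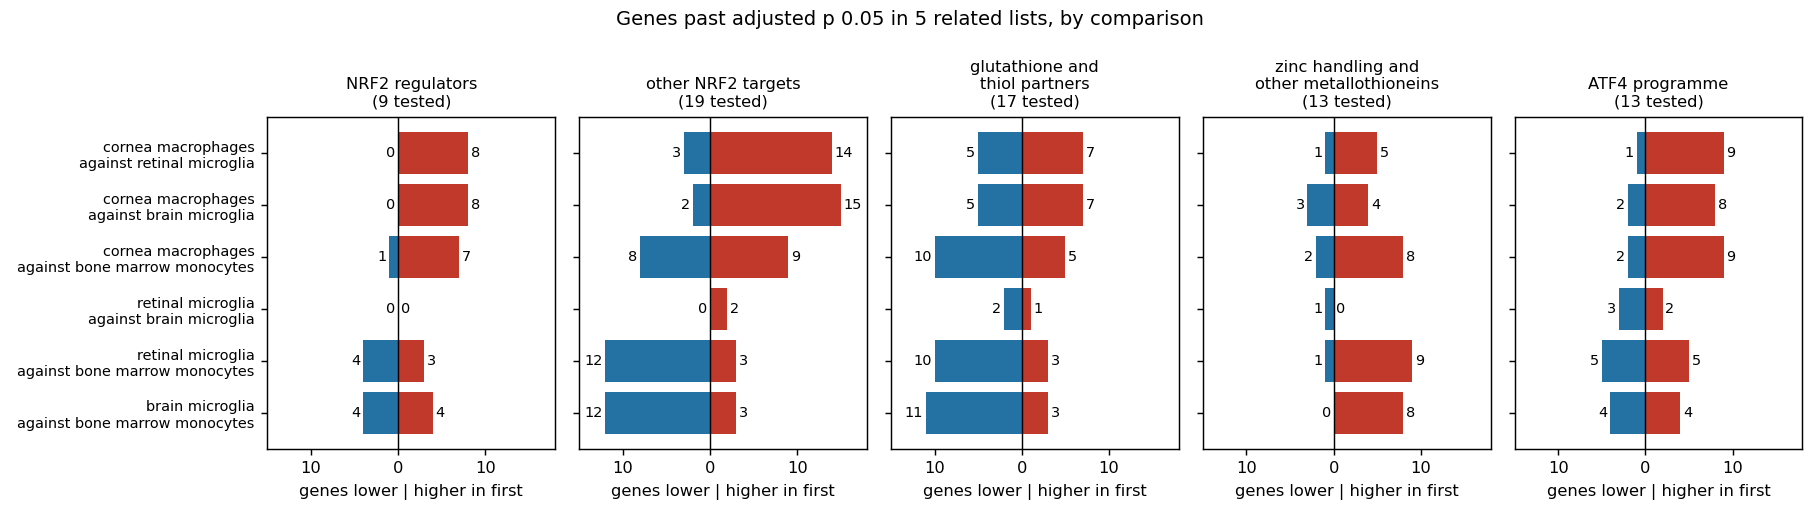
Number of genes past adjusted p 0.05 in the 5 related lists, higher (red, right) or lower (blue, left) in the first-named population, for the 6 comparisons under TMM scaling. NRF2 regulators are mostly higher in cornea macrophages (8, 8 and 7 of 9), while further NRF2 targets and thiol genes are mostly lower in microglia than in monocytes.

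Summed markers of other corneal cells and of early stress were higher in each cornea library than in any other library. The 6 keratocyte markers summed to 1387, 1491, 2583 and 2221 CPM in cornea libraries 1 to 4 and to at most 1.09 CPM in any other library. In monocytes Kera, Dcn and Ptgds had no count. Ptgds was hardly seen in the cornea either. It had 2 counts over all cornea libraries and averaged at most 0.224 CPM in any population, in brain microglia. The 6 corneal epithelial markers summed to 1365, 368, 633 and 234 CPM in the same libraries and to at most 1.22 CPM elsewhere. Krt5 and Krt15 had no count in any library of the other 3 populations. The 6 immediate-early genes summed to 4630, 5814, 5358 and 7158 CPM in cornea libraries 1 to 4. Their sums were 500 to 1451 CPM in retinal microglia, 309 to 508 CPM in brain microglia and 257 to 1004 CPM in monocytes. Within the cornea, Gclc, Gclm and Nqo1 varied by 2.86, 2.03 and 1.76 times between the lowest and the highest library, and the other 7 genes by 1.14 (Prdx1) to 1.29 times (Txnrd1). Gclc, Gclm and Nqo1 were all highest in cornea library 1, which held the most epithelial transcripts, as were Txnrd1, Slc7a11 and Mt2. Srxn1, Prdx1, Gsr and Mt1 were highest in other cornea libraries. Gclm, Txnrd1 and Mt2 put the 4 libraries in the same order as the epithelial markers, and Gclc, Nqo1 and Slc7a11 did not. Cornea library 1 also had the lowest keratocyte and immediate-early sums. Cornea library 4, the lowest in Gclc and Gclm, had the highest immediate-early sum. The part of keratocytes, epithelium and early stress in the levels of the 10 genes was not tested, and the warm enzymatic digestion, used for the cornea, cannot be told apart from the cornea itself.

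The genes most like 9 of the 10 in pattern were found by the root mean square difference of centred log2 CPM over the 16 libraries. Maff came closest to Srxn1 (0.62), Hsph1 to Txnrd1 (0.34), Gm15340 to Gclm (0.31), Tmem171 to Nqo1 (0.68) and Cyp2f2 to Slc7a11 (0.63). Lmna came closest to Mt1 (0.68), Pdpn to Mt2 (0.62), Gm15931 to Gsr (0.40) and the pseudogene Gm21399 to Prdx1 (0.10). Some of these genes lay at the floor outside the cornea. Gm15340 averaged 4.17 CPM in cornea macrophages and had no count in the other populations. Gclm averaged 26.2 to 36.3 CPM there. Tmem171 had no count in either microglial population. Cyp2f2 had 1 count in retinal microglia and none in brain microglia or monocytes. A prior count of 2, added before the log, narrows the range of such genes. Their closeness therefore does not show a like pattern outside the cornea. Among the 10 themselves, the closest pairs were Gclm with Prdx1 (0.73), Gclm with Txnrd1 (0.74) and Txnrd1 with Prdx1 (0.75), followed by Slc7a11 with Mt2 (0.80).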

How the data were processed

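Total RNA of 16 libraries was sequenced. The authors deposited whole-number read counts per gene, with a gene length column (unit other, in bases, per the file headers), used here for levels per kilobase. The submitters' processing notes name CASAVA 1.8.2, Subread, featureCounts, limma and build GRCm38.p4; no source used here gives the strand setting. The 10 genes and all lists were chosen with earlier results of these data known. Genes were filtered with filterByExpr (minimum count 10), scaled by TMM and fitted over all 16 libraries with edgeR 4.0.16 (R 4.3.3) by quasi-likelihood, with Benjamini-Hochberg adjustment over 15754 genes and a threshold of 0.05 in 6 comparisons; SE is the log2 fold change over the square root of F. The fit was also run on simulated counts of independent libraries, with fewer changed genes than the cornea comparisons here. The outcome is not reported here and is not used to judge these results. Named were the 10 genes, Nfe2l2, Keap1 and Mtf1, up to 3 called genes of largest change per list and comparison, and the nearest genes in pattern; the one nearest to Gclc is not reported here. No replicates were copies of each other. Gene coordinates are from GENCODE on GRCm38. Alternatives were RLE and total-count scaling, no filter, DESeq2 1.42.0, limma-voom (limma 3.58.1), pairwise fits, lane, title letters and numbers, and leaving out each library. Counting intervals are exact and cover counting error only.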

Additional observations from a re-analysis of the deposited data

Results flagged for a closer look

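In each population the highest and lowest of 4 libraries were screened for a gap to the others above Dixon's 95% critical share of the range. Of 40 sets of values 7 were marked. Chance marks about 1 in 20 where values spread normally. Where all libraries but 1 had no count, as in Nqo1 in brain microglia and monocytes and Mt2 in monocytes, a mark was certain. The 7 marks were therefore not set against that rate. Nqo1 was marked in retinal library 4, at 0.644 CPM where the others had at most 0.0488 (that library also had the highest summed rod photoreceptor markers, 6475 CPM), in brain library 3, at 0.0992 CPM where the others had no count, and in monocyte library 1, at 0.768 CPM where the others had no count. Mt2 was marked in monocyte library 2, at 0.0997 CPM, which is 1 count. Gclm stood at 31.0 CPM in retinal library 3, where the others had 26.1 to 26.6. Txnrd1 stood at 46.7 CPM in retinal library 1, where the others had 26.2 to 29.4, and at 2525 CPM in cornea library 4, where the others had 3169 to 3247.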

How the results depend on the processing

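Over the alternatives run, 60 log2 fold changes of the 10 genes gave 1570 values, of which 1521 kept direction and side of the threshold, 24 lost the call, 7 gained one and 18 changed sign. All 793 values of the cornea comparisons kept direction and call. The genes called between retinal and brain microglia numbered 1 as reported, 2 under DESeq2 and in the pairwise fit (1 higher, 1 lower) and 2 with lane as a term (0 higher, 2 lower). Those between brain microglia and monocytes numbered 7 as reported and 4 under limma-voom. Those between retinal microglia and monocytes numbered 8 as reported, 6 in the pairwise fit and 6 with lane as a term. They numbered 7 under limma-voom and without the 3 libraries lacking the letter b. Over all genes, 463 were called between retinal and brain microglia with lane as a term, against 1662, and with lane 2 alone, which leaves fewer libraries, 6239 between cornea macrophages and monocytes, against 9980, and 5378 between retinal microglia and monocytes, against 9338. Leaving out each library in turn gave 1 to 2 called members between retinal and brain microglia (1140 to 2004 of all genes), 7 to 8 between retinal microglia and monocytes and 6 to 7 between brain microglia and monocytes. The sign changes all lay in comparisons that were not called: with lane as a term Mt1 (-0.40) and Mt2 (-0.065) between retinal and brain microglia and Gclm (-0.35, and -0.20 in lane 2 alone) between retinal microglia and monocytes; Nqo1 between brain microglia and monocytes in lane 3 alone (1.65); and Nqo1 between retinal microglia and monocytes without the libraries lacking the letter b (0.49). Leaving out each library in turn, the log2 fold change between retinal and brain microglia ranged from -0.14 to 4.64 for Nqo1, -0.56 to 0.061 for Slc7a11, -0.0058 to 0.25 for Mt1 and -0.19 to 1.02 for Mt2. Between retinal microglia and monocytes it ranged from -3.24 to 4.55 for Nqo1 and -0.015 to 0.19 for Gclm, and between brain microglia and monocytes from -4.95 to 1.78 for Nqo1 and -0.37 to 0.15 for Srxn1. The cause was not tested. Brain and marrow libraries 3 and 4 share title numbers. Correlations of their deviations were -0.0096 and 0.033 within a number, and -0.027 and -0.0068 across numbers. With so few libraries this cannot tell whether a number names the same mice. With those numbers as a replicate block 7 members and 8575 genes were called between brain microglia and monocytes. Depth limits Nqo1 outside the cornea and Mt2 in microglia and monocytes.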
